A study of Mus musculus with 6 samples.

Results

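The cytochrome P450 genes of mouse white fat were described on microarrays. The set holds the protein-coding genes whose symbol begins with Cyp and a number, without Cyp51, each read by 1 probe set, the one whose average over all 6 arrays was highest. It came to 90 of 19216 named protein-coding genes, on an array of 65956 probe sets. That average decided between probe sets for Cyp11a1 alone, whose probe sets averaged 6.88 and 5.87 on the log2 scale. Cyp2e1 was set apart with its change already known, so its values are given as a description without a test. A further 7 P450 genes were read by probe sets shared with other genes and were left out.

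RNA was taken from the inguinal depot of subcutaneous white fat in C57BL/6 males aged 2 months. The KO group (n = 3) carried floxed TFG alleles together with Adipoq-ERT2Cre, a Cre recombinase that tamoxifen switches on and that the adiponectin promoter drives in fat cells. The WT group (n = 3) carried the floxed alleles without Cre. Both groups received intraperitoneal tamoxifen over 5 days with RNA isolated 2 weeks afterwards, so the WT arrays share the floxed alleles and the drug but not Cre. Within each group the replicates are labelled biological. TFG organizes the sites where cargo leaves the endoplasmic reticulum, the membrane in which most P450 enzymes sit.

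P450 enzymes are haem proteins that insert an oxygen atom into lipids, steroids, vitamins, drugs and solvents. Those in the endoplasmic reticulum draw electrons from P450 reductase and cytochrome b5, and those in mitochondria from ferredoxin. The large Cyp2, Cyp3 and Cyp4 families act chiefly on foreign compounds and fatty acids and are best known from the liver. Most of the small families serve a step in steroid, bile acid, vitamin D or retinoic acid metabolism.

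Tfg itself read 7.99, 8.21 and 8.03 on KO arrays, against 7.97, 7.94 and 7.91 on WT arrays (log2 signal). The change was 0.14 ± 0.11 (SE; adjusted p = 0.345 in limma). An exact permutation test, 2-sided, gave p = 0.1, which is as low as 3 arrays against 3 can go. The exons that this probe set reads are not given, and the arrays are therefore called KO-labelled and WT-labelled. Array medians were 6.47 to 6.76 on KO-labelled and 6.96 to 7.02 on WT-labelled arrays. KO 2 had the lowest median and correlated least with its group (0.96 to 0.965). Over all probe sets the changes had a median of -0.37, so a change is also given relative to that median where its size matters. Markers of cell types shifted as well: the mean of 11 adipocyte markers was 12.00 to 13.40 on KO-labelled and 8.60 to 10.25 on WT-labelled arrays, with 9 called higher. All 6 endothelial markers were called higher, with array means of 8.96 to 9.62 on KO-labelled and 7.16 to 7.34 on WT-labelled arrays. Skeletal muscle markers, none of them called (0 of 6 at an unadjusted p under 0.05), averaged 9.32, 11.28 and 6.95 on KO-labelled arrays and 6.96 to 7.09 on WT-labelled arrays, so KO 2 and KO 1 stood apart. Of the other lists, fibroblast and progenitor markers had 1 of 5 higher, macrophage markers 1 higher and 1 lower of 6, T and B cell markers 2 of 5 lower, epithelial markers 1 of 6 lower, and neutrophil and erythroid markers 0 of 2 in either direction (0 also at an unadjusted p under 0.05). Beside the counts of these marker lists, limma called 10.7% of protein-coding genes higher and 10.1% lower. In whole tissue, a change in the number of cells of a type cannot be told apart from a change in RNA per cell.

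A few P450 genes stood far above the others on the KO-labelled arrays while most read slightly lower: 82 of 90 changes were below 0. Cyp2e1 was 52.7-fold higher, Cyp4b1 4.63-fold higher and Cyp2d22 3.32-fold higher. Among the 89 genes other than Cyp2e1, limma called 2 higher, or 2.25%, against 10.7% of protein-coding genes and 5.32% of all probe sets. It called 28 lower, or 31.5%, against 10.1% of protein-coding genes and 15.6% of all probe sets. Over all 90 genes 3.33% were called higher and 31.1% lower, and at an unadjusted p under 0.05 61 genes passed, or 67.8%, against 47.9% of all probe sets and 48.4% of protein-coding genes. Calls in either direction were made for 20.9% of all probe sets and 20.8% of protein-coding genes. The median change of all 90 was -0.46, against -0.18 for protein-coding genes. Of the 90 changes, 77 lay within 0.5 of the median probe set on the log2 scale, and relative to that probe set the median P450 gene stood at -0.10. KO 2, the array with the lowest median, had the lowest KO-labelled value in 71 of the 90 genes. This was so in 25 of the 28 genes called lower. Without KO 2 the median P450 change was -0.39, against -0.27 for all probe sets. The calls rest on a narrow margin: without KO 3, WT 1, WT 2 or WT 3 limma called none of 65956 probe sets. In these fits 55, 45, 48 and 38 P450 genes had an unadjusted p under 0.05. The share of all probe sets at that level in the same fits is not given here, so these counts cannot be set against background. Without KO 1 or KO 2 limma called 18 or 19 P450 genes lower and 4 higher. Over all probe sets it then made 14166 calls (3469 higher) or 9967 (3046 higher).

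**Figure D1:**
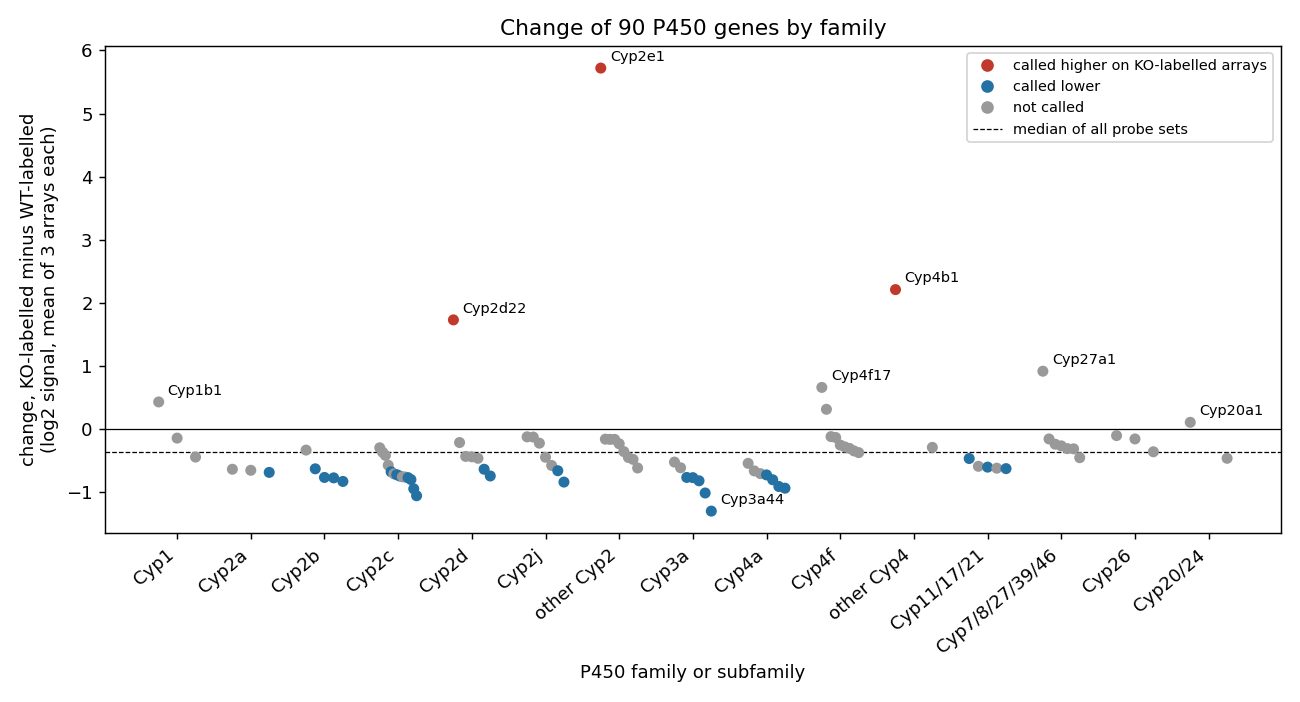
Change of each of the 90 P450 genes (KO-labelled minus WT-labelled, log2 signal, means of 3 arrays each) by family or subfamily; colours give limma's call, and Cyp2e1 was set apart with its change known. Cyp2e1, Cyp4b1 and Cyp2d22 stand at 5.72, 2.21 and 1.73. The genes called lower lie between -1.30 and -0.47, below the dashed median of all probe sets at -0.37.

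Cyp2e1 encodes the P450 that oxidizes ethanol, acetone and other small molecules. Its log2 signal was 15.27, 16.95 and 15.09 on KO-labelled arrays, against 9.95, 10.75 and 9.45 on WT-labelled arrays. The groups lay far apart, and the lowest KO-labelled value was well above the highest WT-labelled one. The means were 15.77 ± 1.03 on KO-labelled and 10.05 ± 0.66 on WT-labelled arrays (SD, n = 3 each), a change of 5.72 ± 0.58 (SE), or 5.13 without KO 2. In both groups the array with the highest Cyp2e1, KO 2 and WT 2, also had the highest adipocyte marker mean, and the lowest, KO 3 and WT 3, had the lowest. Taken relative to that marker mean on the same array, Cyp2e1 stood at 2.94, 3.55 and 3.09 on KO-labelled arrays and at 0.16, 0.50 and 0.85 on WT-labelled arrays, so its groups also lay apart on this scale. The single markers behind that mean changed by 0.51 (Lep) to 4.55 (Retn). The values on this scale are a description, and the part of fat cell content in the change was not tested.

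The promoter of Cyp2e1 is shown because this gene carried the largest change of the family. The 250 bases before its start, from RefSeq (GRCm38.p6, chr7:140763569-140763818, plus strand), are printed with the TATAAA and CCAAT motifs in capitals, CCAAT lying on the opposite strand and so reading ATTGG.
Cyp2e1: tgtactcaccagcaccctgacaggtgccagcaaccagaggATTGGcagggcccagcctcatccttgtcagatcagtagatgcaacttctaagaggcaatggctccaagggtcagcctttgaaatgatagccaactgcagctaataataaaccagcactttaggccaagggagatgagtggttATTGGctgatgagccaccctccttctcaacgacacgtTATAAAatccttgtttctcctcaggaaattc
TATAAA begins 31 bases before the start, and the CCAAT matches begin 210 and 68 bases before it. Searched on both strands, TATAAA was found in 12.4% of all 32851 RefSeq promoter windows of this length and in 29.9% of the 77 windows of P450 genes, which cover 69 of the 90 genes. CCAAT was found in 33.8% of all windows and 42.9% of P450 windows. AGGTCA, the half-site of many nuclear receptors, was in 14.0% of all and 22.1% of P450 windows, and GCGTG, the core of the aryl hydrocarbon receptor element, in 28.2% of all and 19.5% of P450 windows. The direct repeat of AGGTCA with any 1 base between, the element that PPAR and RXR bind, was in 0.0335% of all windows and in 0 of the 77. None of these 3 was in the stretch of Cyp2e1, and a window with the repeat also counts under AGGTCA. A match is a description of these letters alone.

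Cyp4b1, which encodes a P450 of lung and other tissues outside the liver that acts on fatty acids and aromatic amines, read 9.60, 10.21 and 9.16 on KO-labelled arrays, against 7.68, 7.55 and 7.11 on WT-labelled arrays. The groups lay apart. Its change was 2.21 ± 0.30 (SE), with an adjusted p of 0.0354 in limma. Relative to the adipocyte marker mean, Cyp4b1 stood at -2.73, -3.19 and -2.84 on KO-labelled arrays and at -2.11, -2.70 and -1.49 on WT-labelled arrays, so on this scale it was lower and not higher on KO-labelled arrays. Of the promoter motifs searched, none was in the 250 bases before its start (RefSeq, GRCm38.p6, chr4:115647722-115647971, minus strand), printed for comparison with Cyp2e1.
Cyp4b1: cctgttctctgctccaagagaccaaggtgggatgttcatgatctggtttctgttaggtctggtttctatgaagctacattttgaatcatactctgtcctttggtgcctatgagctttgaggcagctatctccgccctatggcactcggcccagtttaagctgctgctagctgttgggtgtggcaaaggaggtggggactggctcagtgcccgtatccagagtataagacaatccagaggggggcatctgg

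Cyp2d22 belongs to the subfamily that clears many drugs in the liver. It read 8.11, 9.66 and 8.04 on KO-labelled arrays, against 7.11, 6.79 and 6.72 on WT-labelled arrays, with no overlap but with KO 2 well above the other KO-labelled arrays. Its change was 1.73 ± 0.45 (SE) and its adjusted p 0.0461 in limma. Without KO 2 the change was 1.20. With quantile normalization the change was 2.01 and the adjusted p 0.0534, and with the replicate number as a block the adjusted p was 0.0547. Centring on housekeeping genes gave the smallest change of these scalings, 0.63, and it did not pass (adjusted p = 0.108 in limma). Relative to the adipocyte marker mean, Cyp2d22 was at -4.22, -3.74 and -3.96 on KO-labelled arrays and at -2.68, -3.46 and -1.88 on WT-labelled arrays, again lower on KO-labelled arrays.

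**Figure D2:**
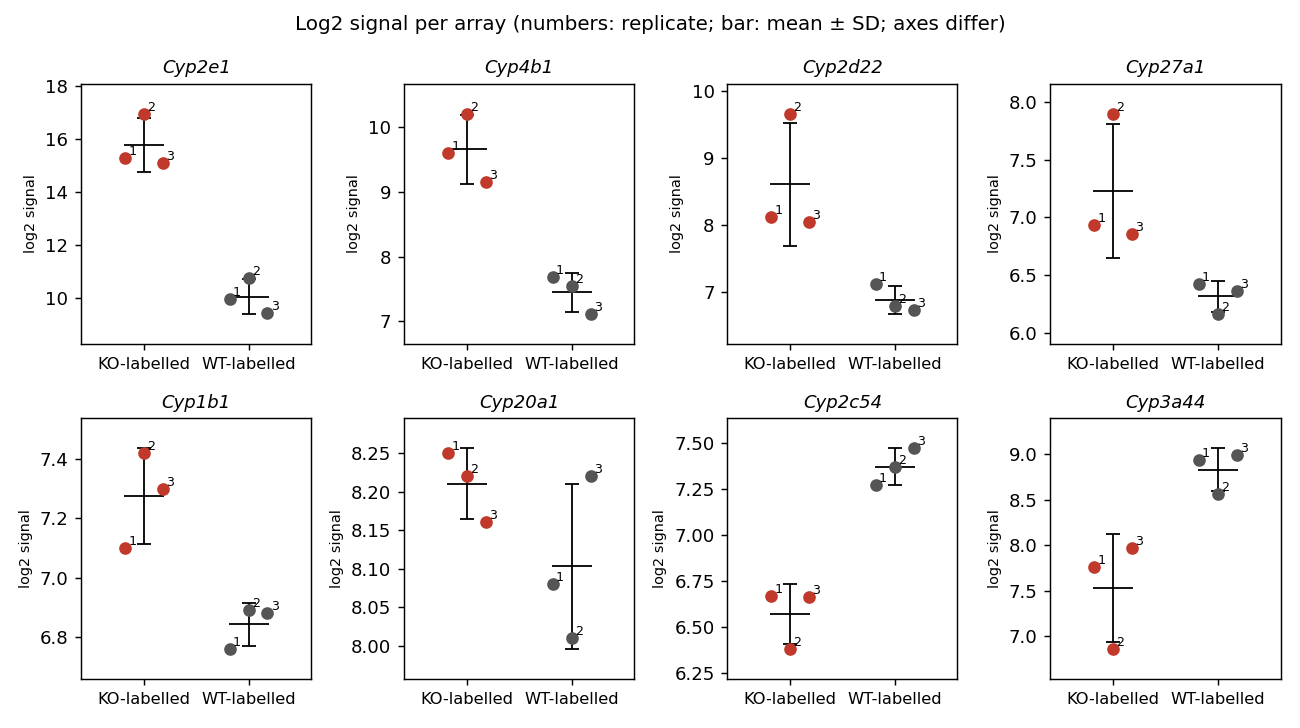
Log2 signal of 8 P450 genes on each array, KO-labelled left and WT-labelled right, with replicate numbers and mean ± SD (n = 3 each) on separate axes. Cyp2e1 runs from 15.09 to 16.95 on KO-labelled and from 9.45 to 10.75 on WT-labelled arrays; KO 2 is the highest point for Cyp2e1, Cyp4b1, Cyp2d22 and Cyp27a1 and the lowest for Cyp2c54 and Cyp3a44.

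Set against its relatives, Cyp2e1 had a far larger change. The other 44 measured Cyp2 genes had changes from -1.06 to 1.73 with a median of -0.60. On each array, Cyp2e1 minus the median of those 44 genes was 8.62, 10.64 and 8.38 on KO-labelled arrays and 2.84, 3.74 and 2.38 on WT-labelled arrays. The median of the 44 read 6.66, 6.31 and 6.72 on KO-labelled arrays, against 7.11, 7.01 and 7.07 on WT-labelled arrays. The change of Cyp2e1 minus their median change was 6.32. That difference ran from 5.57 to 6.74 when single arrays were left out.

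In gene order, Cyp4b1 and Cyp2d22 lay beside P450 genes that were not called higher, and Cyp2e1 had no P450 gene among its nearest neighbours. Cyp4b1 is the last P450 gene in RefSeq gene order on chromosome 4, next to the Cyp4a cluster, whose 7 measured genes changed by -0.94 to -0.54 with 4 called lower. Cyp2d22 is the first of the Cyp2d genes on chromosome 15, and the other Cyp2d genes changed by -0.74 to -0.21. Cyp2e1 lies apart from the Cyp2a and Cyp2b cluster of chromosome 7, in which none of 8 genes of these subfamilies was called higher and 5 were called lower. The neighbour genes Syce1 and Olfr541 on either side of Cyp2e1 stood at -0.55 and -0.86 without passing (adjusted p = 0.0642 and 0.0718 in limma), whereas Efcab14 next to Cyp4b1 rose by 0.76 and Ndufa6 next to Cyp2d22 by 1.58 (adjusted p = 0.0354 for each in limma). These neighbours were chosen by position, after the P450 changes had been seen.

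**Figure D3:**
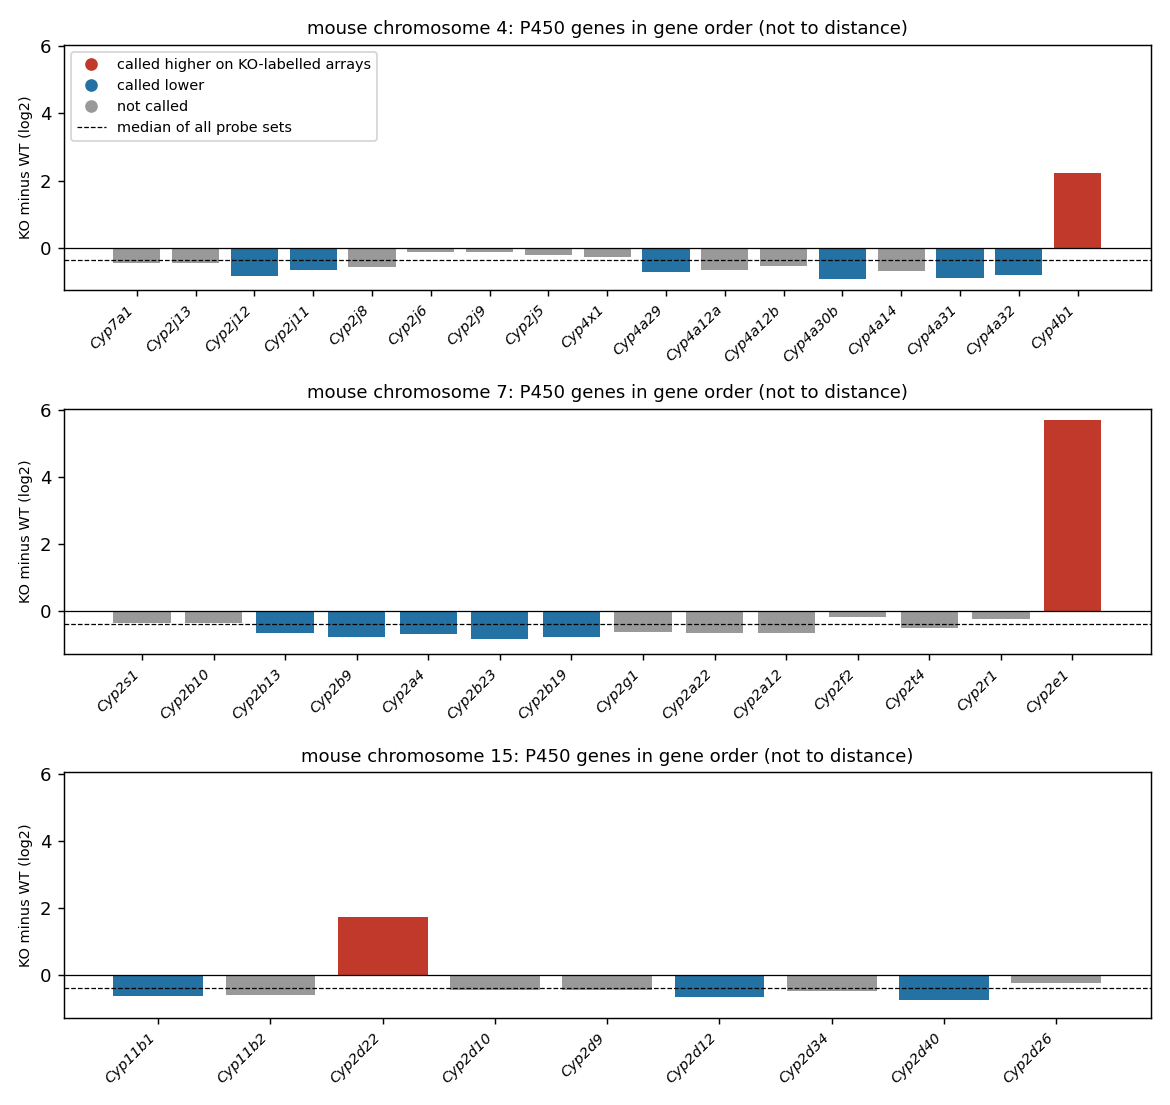
Change (KO-labelled minus WT-labelled, log2) of the P450 genes of chromosomes 4, 7 and 15 in gene order, with spacing not to distance; colours give limma's call and the dashed line is the median of all probe sets, -0.37. Cyp4b1 (2.21), Cyp2e1 (5.72) and Cyp2d22 (1.73) are the only bars above 0 among the measured P450 genes of these chromosomes.

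The epoxygenase subfamilies, Cyp2c and Cyp2j, turn arachidonic acid into epoxides that act on vessels and inflammation. Of 21 measured genes, 9 fell, none rose, and 12 did not pass. Beside this and the subfamily counts below, 15.6% of all probe sets and 10.1% of protein-coding genes were called lower. At an unadjusted p under 0.05 none was higher and 16 were lower, while 47.9% of all probe sets passed that level in either direction. After quantile normalization or centring on the array median, only Cyp2c40 and Cyp2c54 of these genes were still called lower. Cyp2c40 read 7.36, 6.65 and 7.36 on KO-labelled arrays, against 8.35, 8.01 and 8.18 on WT-labelled arrays, and fell by 1.06 on the log2 scale (adjusted p = 0.0383 in limma). Cyp2c54 read 6.67, 6.38 and 6.66 on KO-labelled arrays, against 7.27, 7.37 and 7.47 on WT-labelled arrays, and had the smallest adjusted p of the genes called lower (0.0354 in limma). In both, the groups lay apart and KO 2 was the lowest. Cyp2j12 fell by 0.84, to 5.42 ± 0.30 on KO-labelled arrays, against 6.26 ± 0.04 on WT-labelled arrays (SD, n = 3 each). Cyp2c genes are near copies of each other, as are those of Cyp2a, Cyp2b, Cyp2d, Cyp3a and Cyp4a, so probes can read several of them and the single genes are uncertain.

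Cyp3a genes encode the main drug-oxidizing P450s of liver and gut. Of 7 measured genes, 5 fell and 2 did not pass, and in all 7 every KO-labelled value was below every WT-labelled value. This was so for 62 of the 90 P450 genes, or 68.9%, against 44.9% of all probe sets and 41.0% of protein-coding genes. The opposite, every KO-labelled value above every WT-labelled one, held for 6 P450 genes, or 6.67%, against 11.1% of all probe sets and 23.3% of protein-coding genes. Cyp3a44 read 7.76, 6.86 and 7.97 on KO-labelled arrays, against 8.94, 8.56 and 8.99 on WT-labelled arrays, the largest fall of the 90 (-1.30 ± 0.31 SE, or -0.93 relative to the median probe set). Cyp3a16 fell by 1.01, and Cyp3a13 changed by -0.52 without passing (adjusted p = 0.0521 in limma).

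The Cyp2b and Cyp2a subfamilies, also enzymes of foreign compounds, had 5 of 8 genes lower and none higher. None of the 5 was called after quantile normalization or after centring on the array median. In Cyp2b, 4 of 5 genes fell, with a median of -0.77, and Cyp2b23 had the largest fall at 0.83. In Cyp2a, 1 of 3 fell, and the changes lay between -0.69 and -0.64. Cyp2g1, Cyp2t4 and Cyp2ab1, each the only measured gene of its subfamily, changed by -0.62, -0.48 and -0.45 without passing (adjusted p = 0.118, 0.0536 and 0.0509 in limma). Cyp2f2, which activates naphthalene in the airway, read 6.37, 6.40 and 6.37 on KO-labelled arrays, against 6.56, 6.53 and 6.54 on WT-labelled arrays. Its groups did not overlap although its change was -0.16 (adjusted p = 0.214 in limma). Cyp2u1 changed by -0.16 and Cyp2s1 by -0.36 (adjusted p = 0.27 and 0.117 in limma).

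The fatty acid omega-hydroxylases are the Cyp4a and Cyp4f genes, and a difference between these subfamilies was not tested. Cyp4a genes, known in liver as targets of PPARA, had a median change of -0.73, and 4 of 7 fell. After quantile normalization Cyp4a29 was the only one of them called lower, and after centring on the array median none was. Cyp4a30b fell by 0.94 and Cyp4a29 by 0.73. Of 9 Cyp4f genes, none passed in either direction, with a median of -0.25; at an unadjusted p under 0.05 limma had 1 higher and 3 lower. The exception upward was Cyp4f17, named after its values were seen, with 7.79, 8.13 and 7.42 on KO-labelled arrays, against 7.32, 7.03 and 7.01 on WT-labelled arrays. Its change of 0.66 did not pass as deposited (adjusted p = 0.0624 in limma) and passed after centring on the array median (0.99, adjusted p = 0.0481 in limma). It did not pass after quantile normalization (adjusted p = 0.0553), and centring on housekeeping genes turned its sign, to -0.44 (adjusted p = 0.201 in limma).

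Steroid hormone synthesis genes are markers of adrenal and gonad. Of 5 measured genes, 3 fell (Cyp11a1, Cyp11b1 and Cyp21a1), by 0.60, 0.63 and 0.47. Beside this count and that of the steroid cell markers below, 15.6% of all probe sets and 10.1% of protein-coding genes were called lower. Relative to the median probe set these 3 stood at -0.24, -0.26 and -0.10. None of the 3 was called after quantile normalization (adjusted p = 0.288, 0.098 and 0.303 in limma). The same held after centring on the array median (adjusted p = 0.314, 0.1545 and 0.543 in limma). Cyp11b1 read 6.86, 6.55 and 6.79 on KO-labelled arrays, against 7.47, 7.31 and 7.30 on WT-labelled arrays. Of 4 steroid cell markers 2 fell, Cyp11a1 itself and Hsd3b1, while Star and Nr5a1 stood at -0.15 and -0.32 without passing. Cyp11a1 passed narrowly (adjusted p = 0.04999 in limma), and its second probe set did not (adjusted p = 0.0967). Cyp11b2 and Cyp17a1 changed by -0.59 and -0.62 without passing (adjusted p = 0.0515 and 0.114 in limma).

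No gene of bile acid and oxysterol metabolism passed among 6; at an unadjusted p under 0.05 limma had 1 higher and 1 lower. The higher one was Cyp27a1, which makes 27-hydroxycholesterol in mitochondria. It read 6.93, 7.90 and 6.86 on KO-labelled arrays, against 6.42, 6.16 and 6.36 on WT-labelled arrays. The groups lay apart, but KO 2 set the size: the change was 0.92 with it (adjusted p = 0.0646) and 0.58 without it (adjusted p = 0.041 in limma). Centring on housekeeping genes turned its sign, to -0.19 (adjusted p = 0.582 in limma). Cyp7a1, the rate-limiting enzyme of bile acid synthesis in liver, changed by -0.45 and Cyp7b1 by -0.31. Cyp8b1, Cyp39a1 and Cyp46a1 changed by -0.27 to -0.16, and none of these passed.

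Genes of the aryl hydrocarbon receptor response did not pass, though Cyp1b1 came close. Cyp1b1, found in many tissues outside the liver and in stromal cells, read 7.10, 7.42 and 7.30 on KO-labelled arrays, against 6.76, 6.89 and 6.88 on WT-labelled arrays. The groups lay apart with a change of 0.43 (adjusted p = 0.0556 in limma). It passed after centring on the array median (change 0.76, adjusted p = 0.0404) and after quantile normalization (0.72, adjusted p = 0.0445), while centring on housekeeping genes gave -0.67 without passing (adjusted p = 0.0562 in limma). Cyp1a1 and Cyp1a2 changed by -0.14 and -0.44 without passing. The 5 fibroblast and progenitor markers averaged 8.37 to 8.76 on KO-labelled and 7.85 to 8.13 on WT-labelled arrays. The single markers went different ways: Dcn (2.32), Lum (1.07) and Col1a1 (0.19) stood higher, and Dpp4 (-0.41) and Pi16 (-0.32) lower. Only Dcn was called. The part of these markers in the value of Cyp1b1 was not tested.

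Retinoic acid and vitamin D enzymes gave no call. The retinoic acid hydroxylases Cyp26a1, Cyp26b1 and Cyp26c1 changed by -0.16, -0.36 and -0.10; at an unadjusted p under 0.05 limma had 1 lower and none higher. Cyp26b1 read 6.46, 6.41 and 6.45 on KO-labelled arrays, against 6.82, 6.71 and 6.87 on WT-labelled arrays (adjusted p = 0.0542 in limma). The vitamin D enzymes Cyp2r1, Cyp27b1 and Cyp24a1, which activate the vitamin in successive steps and then degrade it, changed by -0.23, -0.31 and -0.46, with 1 lower at an unadjusted p under 0.05 in limma. Cyp20a1, a P450 of unknown substrate, read 8.25, 8.22 and 8.16 on KO-labelled arrays, against 8.08, 8.01 and 8.22 on WT-labelled arrays, and the groups overlapped.

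How far P450 genes fell depended on the scaling of the arrays. With every array centred on its own median, 4 of the 90 were called lower (Cyp2c40, Cyp2c54, Cyp3a16 and Cyp3a44) and 5 higher, and after quantile normalization 5 lower and 3 higher. Centring on 12 measured housekeeping genes, whose median change was 1.14, gave 84 lower and 2 higher. Over all 65956 probe sets, limma made 13791 calls as deposited, 3509 of them higher. It made 6244 calls after quantile normalization (4032 higher) and 8405 after centring on the median (5146 higher). Centring on housekeeping genes gave 60140 calls (834 higher), so most probe sets were called lower there, as were most P450 genes. After centring on the median, the share of P450 genes called lower was not above that of all probe sets. Of all calls, 25.4% were higher as deposited, 64.6% after quantile normalization, 61.2% after centring on the median and 1.39% after centring on housekeeping genes. Cyp2e1 and Cyp4b1 stayed above 0 in each of these scalings, at 4.62 to 6.20 and 1.11 to 2.54.

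**Figure D4:**
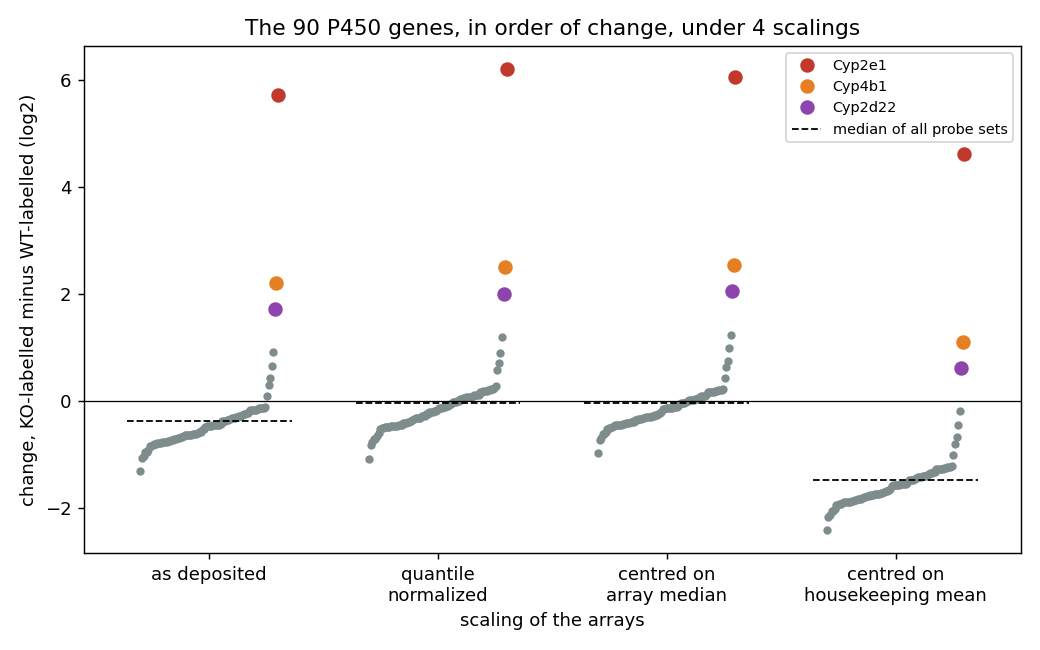
Changes of the 90 P450 genes (KO-labelled minus WT-labelled, log2), in order of size, under 4 scalings of the arrays; dashed lines are the median of all probe sets. Cyp2e1 stands at 5.72, 6.20, 6.05 and 4.62 from left to right, while the median P450 gene stands at -0.46, -0.14, -0.13 and -1.57.

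Markers of the liver, where most of these enzymes are known, gave no common direction. Of 6 measured hepatocyte markers Trf was called higher (3.35) and Fgb lower (-0.56), with array means of 7.72 to 7.94 on KO-labelled and 7.45 to 7.63 on WT-labelled arrays. These means follow Trf, at 13.55 on KO-labelled and 10.20 on WT-labelled arrays, while the median change of the 6 was -0.40. Apoa1, Ttr and Tat stood at -0.52, -0.44 and -0.37 and Alb at 0.39, all without passing. The albumin gene Alb read 8.88, 8.64 and 7.45 on KO-labelled arrays, against 7.81, 7.76 and 8.23 on WT-labelled arrays, and overlapped. Detection calls were not used here, so it was not tested which P450 genes were above background.

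Of 7 measured redox partners, which supply P450 enzymes with electrons or associate with them, 3 rose and none fell, where 10.7% of protein-coding genes were called higher. Pgrmc1, a haem-binding membrane protein that associates with P450s, read 8.66, 9.84 and 8.44 on KO-labelled arrays, against 7.50, 7.33 and 6.96 on WT-labelled arrays, a rise of 1.72. Its relative Pgrmc2 rose by 1.05 and the cytochrome b5 reductase gene Cyb5r3 by 0.98. Cyb5a, cytochrome b5, was 1.5 higher on the log2 scale and just missed the threshold (adjusted p = 0.0501 in limma), as did the mitochondrial ferredoxin gene Fdx1 at 0.77 (adjusted p = 0.05002 in limma). P450 reductase was not analysed here. Of 12 haem genes 1 rose: Alas1, the first enzyme of haem synthesis, at 7.62, 8.27 and 7.68 on KO-labelled arrays, against 7.04, 6.93 and 6.94 on WT-labelled arrays. Relative to housekeeping genes Pgrmc1 stood at 0.61 and did not pass (adjusted p = 0.0997 in limma), and the sign of Cyb5r3, Pgrmc2 and Alas1 turned, at -0.12, -0.05 and -0.22, none of them passing.

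Enzymes that work beside P450s on the same kinds of molecule included larger rises. Of 4 epoxide hydrolases 2 rose: Ephx2, which hydrolyses the fatty acid epoxides that Cyp2c and Cyp2j enzymes make, stood at 11.84, 13.28 and 12.02 on KO-labelled arrays, against 9.64, 10.09 and 8.73 on WT-labelled arrays, and Ephx1 rose by 1.21. Ephx3 and Ephx4 were at -0.59 and -0.31 without passing. Of 4 flavin monooxygenases Fmo1 rose by 2.93 and Fmo2 by 1.30. Of 8 genes of alcohol and aldehyde handling 4 rose and none fell. Beside the counts of these lists, 10.7% of protein-coding genes and 5.32% of all probe sets were called higher. Cat, the catalase that can also oxidize ethanol, rose by 4.42, with 13.24, 14.60 and 13.17 on KO-labelled arrays, against 9.11, 10.82 and 7.83 on WT-labelled arrays. Adh1 rose by 2.89, the mitochondrial aldehyde dehydrogenase gene Aldh2 by 1.56 and Adh5 by 0.81. Relative to housekeeping genes, Fmo2 (0.19), Ephx1 (0.10), Aldh2 (0.45) and Adh5 (-0.29) did not pass, with adjusted p of 0.566, 0.758, 0.206 and 0.388 in limma, while Ephx2, Fmo1, Cat and Adh1 still passed, at 1.79, 1.82, 3.31 and 1.79. Adipocyte and endothelial markers were higher on the same KO-labelled arrays, as were 6 of 12 housekeeping genes, and their part in these rises was not tested.

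Of 21 measured receptors and factors that control P450 genes, 2 rose and 1 fell, where 10.7% of protein-coding genes were called higher and 10.1% lower, so these counts were near that background. Pparg rose by 3.66, and it is also on the adipocyte marker list. Arnt, the partner of the aryl hydrocarbon receptor, rose by 1.27, with 8.18, 9.16 and 8.20 on KO-labelled arrays, against 7.22, 7.33 and 7.19 on WT-labelled arrays, but relative to housekeeping genes it stood at 0.16 without passing (adjusted p = 0.623 in limma). Nr1i3, the receptor that induces Cyp2b genes in liver, fell by 0.51, which is -0.14 relative to the median probe set. Ahr changed by 0.20 without passing (adjusted p = 0.227 in limma), and by -0.90 relative to housekeeping genes, where it passed (adjusted p = 0.0179 in limma). Ppara stood 0.78 higher without passing (adjusted p = 0.0582 in limma).

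**Figure D5:**
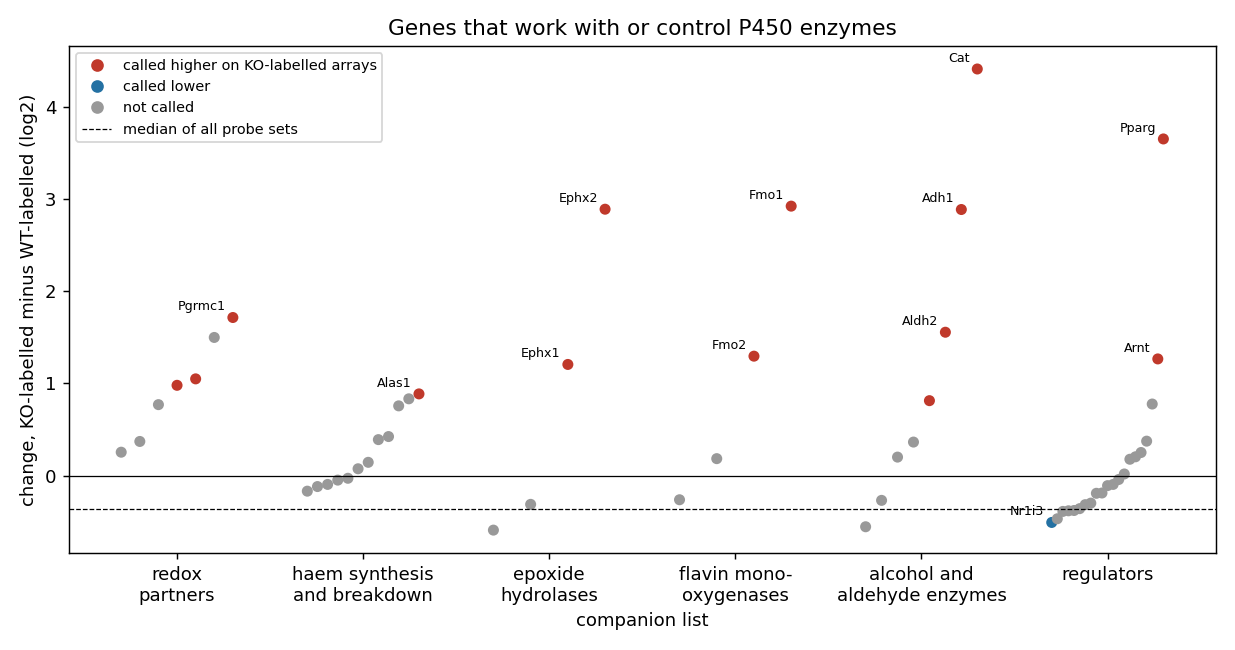
Change (KO-labelled minus WT-labelled, log2) of each measured gene in 6 lists of genes that work with or control P450 enzymes; colours give limma's call and the dashed line is the median of all probe sets. The highest points are Cat at 4.42, Pparg at 3.66, Fmo1 at 2.93, Ephx2 at 2.89 and Adh1 at 2.89.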

How the data were processed

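The authors deposited 1 log2 signal for each probe set and array. Transcriptome Analysis Console made them, per the submitters' processing notes; for its version, background correction, summary and normalization, nothing is stated in the labels or headers. The platform annotation in GEO, its symbols brought up to date with RefSeq (GRCm38.p6), paired 31245 of 65956 probe sets with 1 gene, 1505 with several and 33206 with none. All probe sets were fitted with limma 3.58.1 in R 4.3.3 (lmFit, eBayes without trend), genotype as the only term, and called at a Benjamini-Hochberg adjusted p under 0.05. The fit was tested on simulated arrays. Tfg also had an exact permutation test in scipy 1.17.1. Python 3.11.15, pandas 2.3.3 and matplotlib 3.10.9 made the tables and plots.

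The members and lists were chosen with earlier results of these data known. Named genes were Cyp2e1, called members (up to the 15 largest rises and 15 largest falls), the members with the extreme changes and highest mean of each larger family, Cyp2r1, Cyp2f2, Cyp2s1 and Cyp2u1, all members of the small families and functional groups, and up to 4 called genes of each companion list with Cyb5a, Alas1 and Ahr; Ppara, Fdx1, Ephx3, Ephx4 and the marker genes were added after their values were seen. Cyp4f13, Cyp4f17 and the gene neighbours were likewise added. Cyp2g1, Cyp2t4, Cyp2ab1 and Cyp4a29 are also given, although they fall outside these rules. Protein identity, planned for choosing relatives of Cyp2e1, was not used here. The number of arrays limits precision. Alternatives covered scaling, a filter on dim probe sets, the variance model, array weights, the replicate block, probe set choice, the threshold and leaving out each array.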

Additional observations from a re-analysis of the deposited data

How the results depend on the processing

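As deposited, 3 P450 genes were called higher and 28 lower, among 13791 calls over all probe sets, and the median P450 change was -0.46. Quantile normalization gave 5 lower, a median of -0.14 and 6244 calls in all. Centring on the array median gave 5 higher, 4 lower, a median of -0.13 and 8405 calls. Centring on housekeeping genes gave 84 lower, a median of -1.57 and 60140 calls; there Tfg stood at -0.97 (adjusted p = 0.0103), and Cyp4f13 (-0.79), Cyp20a1 (-0.997), Cyb5r3 (-0.12), Pgrmc2 (-0.054), Alas1 (-0.22), Adh5 (-0.29) and Ahr (-0.90) also turned sign, as did Cyp27a1 (-0.19), Cyp4f17 (-0.44) and Cyp1b1 (-0.67), which were called under neither scaling. Array weights gave 5 higher, 39 lower and 22409 calls. A threshold of 0.10 gave 6 higher, 54 lower and 30676 calls. Least squares without moderation gave 0 P450 calls either way and 7 in all, with 53 P450 genes at an unadjusted p under 0.05. The share of all probe sets at that level in this fit is not given here. Without dim probe sets, 46 P450 genes were tested. Among named genes called under neither setting, 11 of 63 changed sign after quantile normalization, 11 after median centring and 3 after housekeeping centring.

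The replicate block gave 14 lower and 2 higher, without Cyp2d22. Same-numbered arrays correlated at 0.002, 0.205 and 0.139 in their deviations, and differently numbered ones at -0.216 to 0.171. With so few arrays in a group, these values cannot settle whether the numbers pair the arrays. Without single arrays the counts ran from 0 to 4 higher, 0 to 19 lower and 0 to 14166 in all. They were 0 without KO 3, WT 1, WT 2 or WT 3, with 55, 45, 48 and 38 P450 genes at an unadjusted p under 0.05. For these fits too, the matching share of all probe sets is not given. No limma call made on all 6 arrays was kept without any 1 of these 4. The cause was not tested. Without detection calls, signal over background is unknown.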

Other observations

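Some P450-related transcripts outside the 90 genes were also measured. Cyp4b1-ps2, a transcribed pseudogene of the Cyp4b1 region, read 8.71, 9.16 and 7.82 on KO-labelled arrays, against 7.63, 7.76 and 7.05 on WT-labelled arrays. Its change of 1.08 did not pass (adjusted p = 0.0751 in limma), and it resembles Cyp4b1, so its probes may read both. The P450 pseudogenes Cyp4a28-ps, Cyp4f41-ps, Cyp2d13 and Cyp21a2-ps fell by 0.87, 0.76, 0.59 and 0.53. The sterol demethylase gene Cyp51 read 6.28, 6.41 and 6.32 on KO-labelled arrays, against 6.23, 6.14 and 6.26 on WT-labelled arrays, and did not pass (adjusted p = 0.353 in limma). Tbxas1 and Ptgis, P450s that make thromboxane and prostacyclin, changed by -0.44 and -0.41 without passing. Of the 7 probe sets shared by several genes, 5 were called lower and none higher in limma, with changes from -1.33 to 0.22. Over all probe sets 15.6% were called lower and 5.32% higher. Both probe sets of the pair Cyp3a41a and Cyp3a41b are among the 5, each at -1.33, so the 5 are not all separate genes.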
